A study of Mus musculus with 6 samples.

Results

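The Krüppel-like factors (KLFs) measured here were 10 genes, Klf2, Klf3, Klf4, Klf5, Klf6, Klf9, Klf10, Klf12, Klf13 and Klf15, selected by gene symbol from a table of 23282 genes. All 10 had a row in that table and all 10 had enough reads to be tested. The cells were primary hepatocytes from mice labelled C57BL6/N, released by collagenase perfusion and plated in M199 medium. After 3 h of attachment the medium was replaced, and the cultures were left untreated (control, 3 samples) or received recombinant IL-1β protein (3 samples) for 24 h. All 6 samples therefore share the same strain, isolation and culture, and differ by the cytokine. The age and sex of the animals and the number of animals behind the 3 samples of a group are not given in the sources used here, and the labels do not state the concentration of the cytokine in the sequenced cultures. Nothing in the labels says that the samples came from separate animals or cultures. The p-values below therefore judge the difference between groups against the spread between these samples, which may be technical. The deposited description counts 2 samples per group but names 3, and all were used.

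KLFs are transcription factors that bind GC-rich and CACCC-containing DNA through C2H2 zinc fingers at their C-terminal end. The regions outside the zinc fingers divide the family into groups with different partners. Klf2, Klf4, Klf5 and Klf6 belong to a group of mostly activating factors, Klf3 and Klf12 recruit the corepressor CtBP, and Klf9, Klf10 and Klf13 recruit the Sin3 corepressor complex, whereas Klf15 is usually placed outside these groups. In the liver the family is known for its links to fasting metabolism and glucocorticoid responses (Klf9, Klf10 and Klf15), to injury and stellate cell activation (Klf6) and to the sinusoidal endothelium (Klf2 and Klf4). IL-1β is an inflammatory cytokine that signals through NF-κB and MAP kinases.

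RNA was read by QuantSeq, a method that primes on the poly(A) tail and yields reads close to the 3′ end of each transcript. Each library held between 9538741 and 11105408 counts. Levels are given as CPM, that is, counts scaled to a common library size adjusted by the TMM method, and they were not divided by transcript length, since this kind of library reads a transcript near its end rather than along its length. At these depths, 3 counts, taken as the lower limit of detection for counting error alone, correspond to 0.268 to 0.320 CPM per library. IL-1β was compared with control by edgeR's quasi-likelihood test over the 11657 genes that passed a filter on low counts, and p-values were adjusted over all of them by the Benjamini-Hochberg method. In that comparison 13.4% of genes had an adjusted p below 0.05, 6.97% higher and 6.44% lower after IL-1β (812 and 751 genes), although scaling by total counts alone gave 662 higher and 1007 lower. With 3 samples against 3, an exact two-sided permutation test cannot give a p below 0.1.

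Klf6 rose by about 29% and was the member that passed the test. The other 9 members did not pass it, with edgeR adjusted p from 0.283 to 0.926, and for 6 of them the interval of the fold change was wide. Thus 1 of 10 members was called higher and 0 lower, a share of 10% beside the 13.4% of all genes, so the family as listed was not called more often than genes in general. The count of 0 lower members was the same with DESeq2 and with limma, and 0 members were lower at an unadjusted p below 0.05. The median log2 fold change of the 10 members was 0.099, against -0.0018 for all genes tested.

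The promoters of the most abundant members are printed here because these are the genes whose levels were measured most precisely, Klf6 as the member that rose and Klf3, Klf13 and Klf9 as 3 well-measured members that did not pass the test. They are RefSeq promoter windows on GRCm38.p6, from 250 bases before to 50 bases after the annotated start, 5′ to 3′ on the strand of the gene. The windows are chr13:5861239-5861538 on the plus strand for Klf6, chr5:64803271-64803570 on the plus strand for Klf3, chr7:63938866-63939165 on the minus strand for Klf13 and chr19:23140976-23141275 on the plus strand for Klf9. Capitals mark the letters CACCC (the element that KLF proteins bind), GGGCGG (the GC box, bound by Sp1 and several KLFs) and CCAAT (the CCAAT box), each on either strand, and adjacent or overlapping matches run together.
Klf6: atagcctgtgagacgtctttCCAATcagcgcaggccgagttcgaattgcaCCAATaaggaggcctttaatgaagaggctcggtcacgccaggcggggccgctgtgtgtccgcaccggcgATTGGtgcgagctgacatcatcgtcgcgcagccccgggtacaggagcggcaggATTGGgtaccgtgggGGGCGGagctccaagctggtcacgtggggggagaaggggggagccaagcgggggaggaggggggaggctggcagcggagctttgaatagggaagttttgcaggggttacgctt
Klf3: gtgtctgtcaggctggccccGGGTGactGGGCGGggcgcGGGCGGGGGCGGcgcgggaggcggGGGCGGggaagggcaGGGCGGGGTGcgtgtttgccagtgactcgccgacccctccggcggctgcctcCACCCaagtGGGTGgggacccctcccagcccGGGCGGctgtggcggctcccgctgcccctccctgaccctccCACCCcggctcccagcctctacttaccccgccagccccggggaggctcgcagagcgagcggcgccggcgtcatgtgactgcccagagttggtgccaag
Klf13: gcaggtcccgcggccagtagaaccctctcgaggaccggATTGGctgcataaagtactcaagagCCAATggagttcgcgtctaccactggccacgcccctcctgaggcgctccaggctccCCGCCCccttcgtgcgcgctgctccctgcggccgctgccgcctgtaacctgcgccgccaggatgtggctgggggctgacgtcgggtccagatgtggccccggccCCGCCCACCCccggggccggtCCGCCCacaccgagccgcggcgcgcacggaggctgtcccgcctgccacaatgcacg
Klf9: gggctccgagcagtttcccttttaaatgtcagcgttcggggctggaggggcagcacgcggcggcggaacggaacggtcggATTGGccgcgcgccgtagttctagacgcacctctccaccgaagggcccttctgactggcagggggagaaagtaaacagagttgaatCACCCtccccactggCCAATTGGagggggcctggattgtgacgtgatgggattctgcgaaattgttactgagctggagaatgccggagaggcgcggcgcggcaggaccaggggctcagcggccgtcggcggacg

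The Klf6 window held CCAAT 4 times, GGGCGG once and CACCC at no position. The Klf3 window held CACCC 5 times and GGGCGG 6 times, and it had no CCAAT. Klf13 had 1 CACCC, 3 GGGCGG and 2 CCAAT matches, and Klf9 had 1, 0 and 3. Of 32851 promoter windows of the same length, 57.5% held CACCC, 35.7% held GGGCGG and 37.4% held CCAAT, whereas 5 or more CACCC matches occurred in 1.02% and 5 or more GGGCGG matches in 2.71%. The windows were also GC-rich, with 63.0% G and C in Klf6, 76.7% in Klf3, 72.0% in Klf13 and 63.3% in Klf9, against a median of 52.7% over all windows. Entries were found for 8 of the 10 members and not for Klf5 and Klf10. Among these 8 windows the NF-κB consensus had no match, and it matched in 4.51% of all windows. The letters TGANTCA, an AP-1 site, and TTCNNNGAA, a STAT site, each occurred once in the Klf9 window and in no other of the 8, against 7.81% and 8.30% of all windows. CACGTG, an E-box, occurred 3 times in Klf15 and once each in Klf6 and Klf4, against 7.15% of all windows. These are matches of letters only, and a window without a match says nothing about a factor.

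Klf6, a zinc finger factor first described as binding a core promoter element and known as an early response gene in injured liver, was by far the most abundant member. It lies on chromosome 13 from 5861489 to 5870393 on the plus strand of GRCm38. Its level was 647, 651 and 665 CPM in the 3 control samples and 870, 863 and 798 CPM in the 3 IL-1β samples, which correspond to between 6609 and 8990 reads per library. Every IL-1β sample was above every control, and the controls lay within 1.03-fold of each other. The mean was 655 ± 9.46 CPM (SD, n = 3) in control and 844 ± 39.8 CPM (SD, n = 3) in IL-1β-treated hepatocytes. The log2 fold change was 0.37 (standard error 0.060, edgeR adjusted p = 7.9e-05), a 1.29-fold increase with a 95% interval of 1.18 to 1.40 (p = 0.1 by the exact two-sided permutation test). The size was modest beside other responding genes, since 79.2% of the 812 genes called higher had a larger log2 fold change. Of 1748 tested genes with a mean of at least 100 CPM, 24.5% were called in either direction, which shows how often genes read this deeply passed the test.

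**Figure D1:**
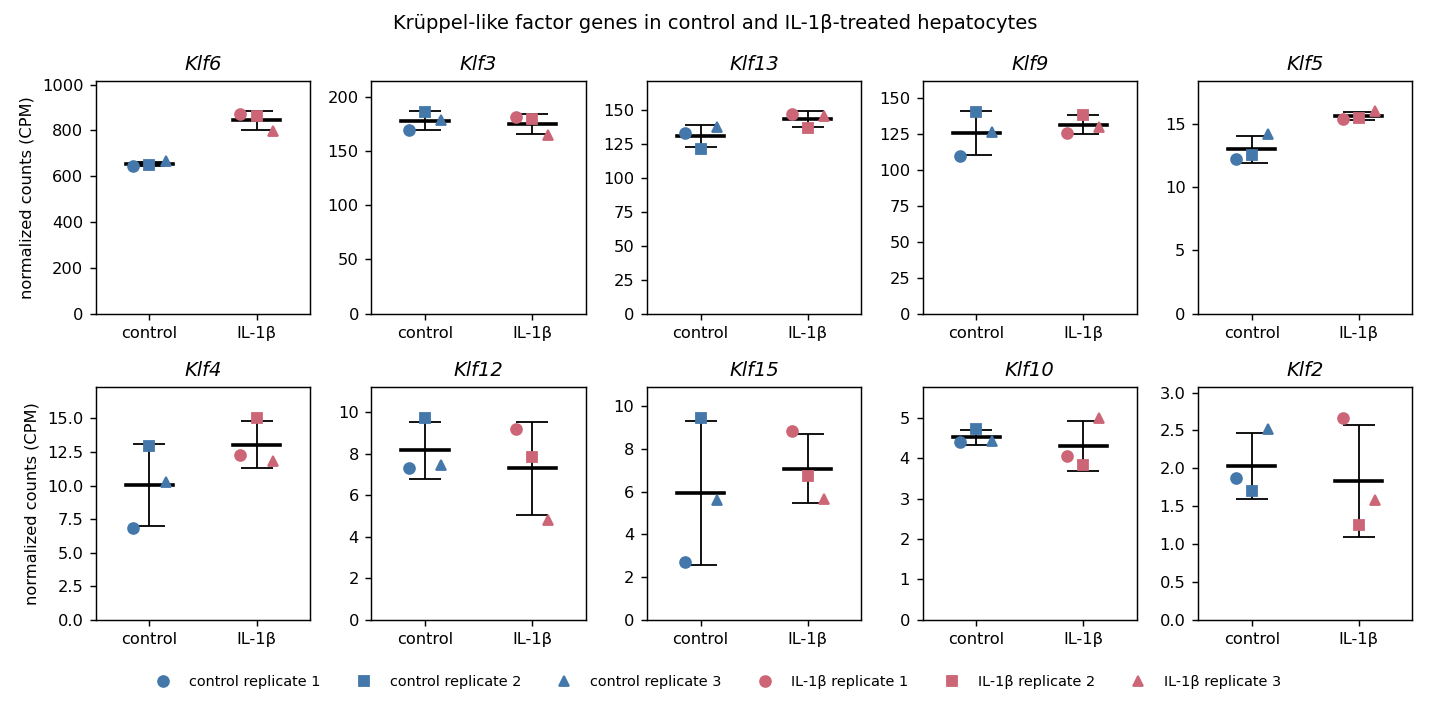
Level of each of the 10 KLF genes (y axis, normalized counts in CPM, starting at 0 and scaled separately for each gene) in control and IL-1β-treated hepatocytes (x axis). Symbols are single samples with a shape for each replicate number, thick bars are means and whiskers are 1 SD (n = 3). Klf6 and Klf5 are the genes whose groups do not overlap, and the controls of Klf15 range from 2.72 to 9.48 CPM.

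Klf5, a factor of proliferating epithelia, was the other member whose groups did not overlap. It was read at 12.2, 12.5 and 14.2 CPM in the controls and at 15.4, 15.4 and 15.97 CPM after IL-1β, from 130 to 172 reads per library. The difference was in the direction of Klf6, but it rested on few reads. The log2 fold change was 0.27 (standard error 0.16), with a fold of 1.20, a 95% interval of 0.963 to 1.505 and an edgeR adjusted p of 0.324. In all, 2 of the 10 members had groups that did not overlap, both higher, against 28.2% of all genes tested in either direction and 14% in the higher direction.

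Klf4, a factor of endothelium, epithelia and pluripotent cells, had the largest fitted change but a wide spread. The controls were at 6.85, 12.97 and 10.3 CPM and the IL-1β samples at 12.3, 15.1 and 11.8 CPM. The second control lay above 2 of the 3 IL-1β samples, so the groups overlapped. The log2 fold change was 0.38 (standard error 0.21), with a 95% interval of the fold from 0.967 to 1.75 and an edgeR adjusted p of 0.283. The fitted value ranged from 0.16 without control replicate 1 to 0.62 without control replicate 2, and it passed the test in neither fit.

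Klf2, which maintains the quiescent state of endothelium under flow, was the member with the fewest reads. Its counts were 20, 19 and 25 in the controls and 25, 13 and 17 after IL-1β, or 2.03 ± 0.430 and 1.83 ± 0.744 CPM (SD, n = 3 per group). The groups overlapped fully, and the 95% interval of the fold, from 0.483 to 1.67, spans a decrease as well as an increase. A change of Klf2 within these bounds could not be resolved, with 13 to 25 reads per library and a coefficient of variation of 40.6% after IL-1β, where counting error alone would give 23.4%.

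The CtBP-recruiting members Klf3 and Klf12 differed in how well they were measured. Klf3, a repressor found in many tissues, was the member with the second most reads. It had 169, 186 and 179 CPM in the controls and 181, 179 and 165 CPM after IL-1β. The ranges overlapped, and the log2 fold change was -0.03 (standard error 0.071, edgeR adjusted p = 0.890). Its 95% interval, 0.888 to 1.09-fold, excludes an increase of the size fitted for Klf6. Klf12, known as a repressor of the AP-2α gene, had 7.32, 9.75 and 7.45 CPM in the controls and 9.18, 7.87 and 4.83 CPM after IL-1β. The lowest value, from 52 reads, belonged to the third IL-1β sample, and without it the fitted value went from -0.17 to 0.061. Its 95% interval of the fold ran from 0.627 to 1.26, and the adjusted p was 0.749.

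The Sin3-recruiting members were likewise not called. Klf13, known for its role in lymphocyte chemokine expression and heart development, had 133, 122 and 138 CPM in the controls and 147, 137 and 146 CPM after IL-1β. Only the second IL-1β sample lay within the control range. The log2 fold change was 0.13 (standard error 0.074, edgeR adjusted p = 0.301), and the 95% interval of the fold was 0.985 to 1.22. Klf9, a hormone-responsive factor induced by glucocorticoids and thyroid hormone, had 110, 140 and 127 CPM in the controls and 126, 139 and 130 CPM after IL-1β. All IL-1β values fell within the control range, and the log2 fold change was 0.07 (standard error 0.084, edgeR adjusted p = 0.713), with a 95% interval of 0.929 to 1.18-fold. Klf10, induced early by TGF-β and linked to the circadian control of hepatic glucose metabolism, had 4.41, 4.74 and 4.43 CPM in the controls and 4.06, 3.84 and 5.01 CPM after IL-1β. These levels rested on 38 to 54 reads per library, and the 95% interval of the fold was 0.634 to 1.43 (adjusted p = 0.926).

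Klf15, which promotes amino acid catabolism and gluconeogenesis in the fasted liver, varied most among the controls. The 3 control libraries held 29, 106 and 56 reads, or 2.72, 9.48 and 5.64 CPM, and the IL-1β libraries 83, 70 and 61 reads, or 8.86, 6.72 and 5.66 CPM. The IL-1β samples lay inside the control range. The coefficient of variation of the controls was 57.0%, where counting error alone would give 12.5%, and the highest control was 3.48 times the lowest. The log2 fold change was 0.24 (standard error 0.31, edgeR adjusted p = 0.723), with a 95% interval of 0.754 to 1.85-fold. Its direction turned to -0.11 without control replicate 1.

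That control library was low for other members as well, and it differed most from its group by a chi-square of raw counts. This statistic left out genes with few reads and gives abundant genes the most weight, so it does not show a difference spread over all genes. The chi-square per degree of freedom was at least 7.45 against the other controls, 6.12 between those and 4.16 to 4.75 among the IL-1β libraries. Without control replicate 1, Klf6 stayed higher (log2 fold change 0.36, edgeR adjusted p = 2.2e-05), 1 member was called and the number of all genes called was 1596 in place of 1563. Control replicate 1 had the lowest CPM of its group for 8 of the 10 members, Klf13 and Klf2 being the exceptions, and the highest for none. Control replicate 2 had the highest CPM for 6 members, Klf3, Klf9, Klf4, Klf12, Klf15 and Klf10. For Klf9 the coefficient of variation of the controls was 12.1%, above the 2.74% of counting error, and for Klf4 it was 30.6% against 9.68%. For Klf6, in contrast, it was 1.45% against 1.20%, so the Klf6 controls differed by little more than counting error. In the IL-1β group the coefficients of these 4 genes were 23.02% for Klf15, 4.91% for Klf9, 13.5% for Klf4 and 4.72% for Klf6. Counting error alone would give 11.8%, 2.73%, 8.67% and 1.08%, so Klf6 after IL-1β varied more than counting error.

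**Figure D2:**
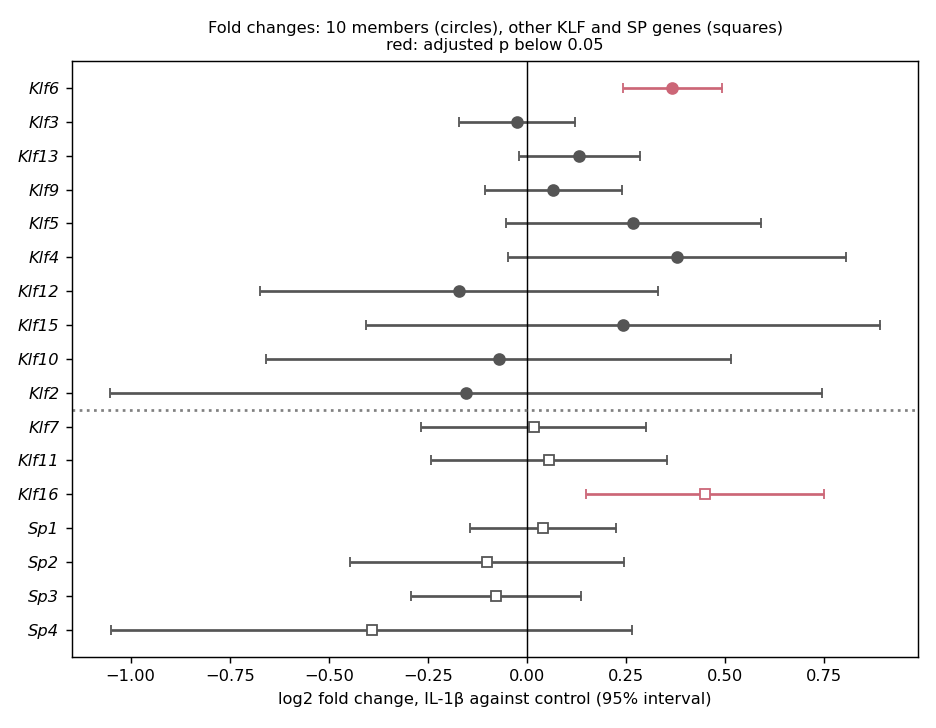
Log2 fold change of IL-1β against control (x axis) with its 95% interval (whiskers) for the 10 members (circles, in order of mean level) and for the other KLF and SP genes that were tested (squares). Red marks an edgeR adjusted p below 0.05, which holds for Klf6 (0.37) and Klf16 (0.45), and the intervals of all other genes include 0.

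The intervals were narrower for members with more reads, although not in strict order, since Klf15 at 6.51 CPM had a wider interval than Klf10 at 4.41 CPM. For the 4 members above 100 CPM the 95% interval reached 0.12 to 0.17 log2 units to either side, whereas for Klf2 it reached 0.90. The intervals of 4 members, Klf6, Klf3, Klf13 and Klf9, excluded a change of 1.5-fold in either direction. Those of 9 members excluded a change of 2-fold, Klf2 being the exception. For the 6 members under 20 CPM the interval included a change of the size fitted for Klf6, in the case of Klf5 and Klf4 as an increase and in the case of Klf12 as a decrease, whereas those of Klf3, Klf13 and Klf9 did not include it in either direction.

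**Figure D3:**
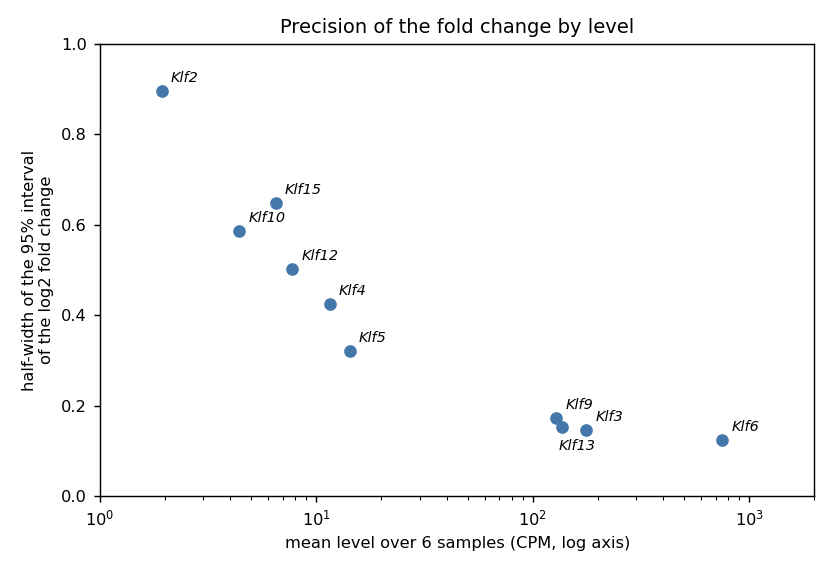
Half-width of the 95% interval of the log2 fold change (y axis) against the mean level over the 6 samples (x axis, CPM on a log scale) for the 10 members (points). The half-width is 0.90 for Klf2 at 1.93 CPM and 0.12 for Klf6 at 749 CPM.

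By mean CPM over all 6 samples the members were ordered Klf6, Klf3, Klf13, Klf9, Klf5, Klf4, Klf12, Klf15, Klf10 and Klf2. This is an order of reads near the 3′ end. Klf6 exceeded Klf3 by 4.24-fold, Klf3 exceeded Klf13 by 1.29-fold, Klf9 exceeded Klf5 by 8.998-fold and Klf10 exceeded Klf2 by 2.29-fold, and in these 4 steps the lowest sample of the upper gene lay above the highest sample of the lower gene. The other steps did not separate, since Klf13 was above Klf9 in 4 of 6 samples and the steps from Klf5 down to Klf10 held in 5 of 6 samples each. For Klf3, Klf5 and Klf9 the 3′ end in the GENCODE M21 annotation lies 2772, 1627 and 1223 bases beyond the end given in the deposited table, whereas the ends of the other 7 members lie within 29 bases. In RefSeq on GRCm38.p6 the 3′ end lies beyond that of the table by 2772 bases for Klf3, 1218 for Klf9, 4459 for Klf12 and 16594 for Klf15, and by at most 3 bases for the others. Reads beyond the end in the table may not have been counted, so the levels of Klf3, Klf5, Klf9, Klf12 and Klf15 relative to the others are uncertain. None of the 75-base windows in the last 500 bases of the members' annotated coding transcripts occurred in a transcript of another gene. Klf3, Klf12 and Klf13 overlap annotated genes on the opposite strand, Klf3 and Klf9 also overlap short annotations on their own strand, and the sources used here do not state whether counting took account of strand.

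Summed over the 10 members, the level was 1095 to 1153 CPM in the controls and 1283 to 1377 CPM after IL-1β. Without Klf6 the sums were 447 to 499 and 485 to 507 CPM, and they overlapped. Klf6 held 56.6% to 59.1% of the reads of the 10 genes in the controls and 62.2% to 63.2% after IL-1β.

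**Figure D4:**
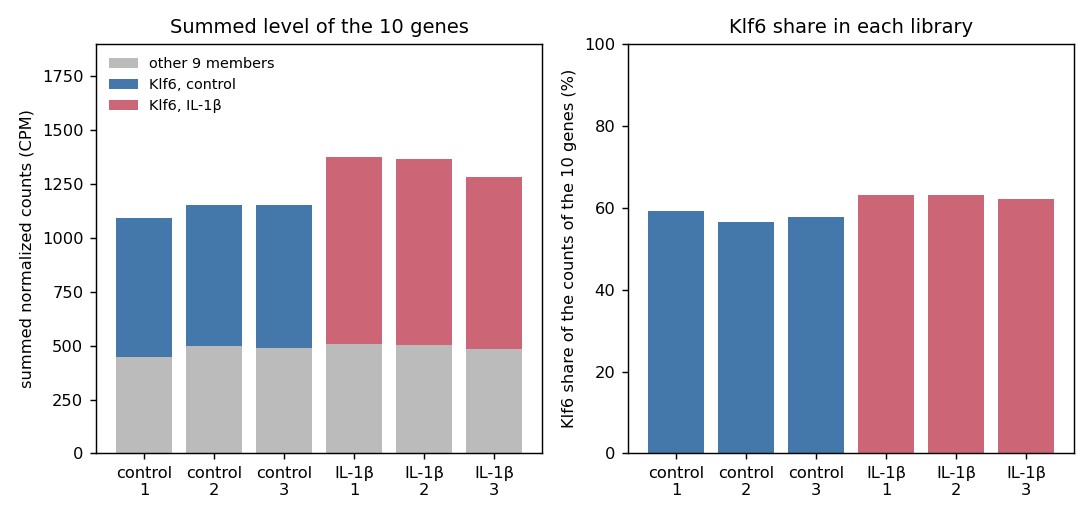
Summed level of the 10 members in each library (left, y axis in CPM, Klf6 coloured and the other 9 members in grey) and the share of Klf6 in their counts (right, y axis in percent). The 3 IL-1β libraries stand above the 3 controls in both panels, and the grey parts, which lie between 447 and 507 CPM, overlap between the groups.

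Ratios between members within a library do not depend on scaling, and 10 pairs inside the groups named above were compared by exact two-sided permutation tests. With 3 samples against 3 no pair could have reached a p below 0.1, and the exact p ran from 0.3 to 1 (0.6 to 1 adjusted over the 10 pairs), so these tests do not show that any ratio was unchanged. The log2 ratio of Klf5 to Klf6 was -5.66 ± 0.096 in the controls and -5.76 ± 0.099 after IL-1β (SD, n = 3 per group), a difference of -0.096 that was no larger than the spread between replicates. Klf6 passed the test across genes and Klf5 did not, and these values do not show that they responded differently. The log2 ratio of Klf9 to Klf13 was -0.064 ± 0.25 and -0.12 ± 0.13, and that of Klf2 to Klf6 was -8.35 ± 0.28 and -8.92 ± 0.54 (SD, n = 3 per group).

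Of 16 other KLF and SP genes, 7 were tested, 1 was higher (14.3%, beside 13.4% of all genes), 0 were lower and the median log2 fold change was 0.016. Klf16, a GC-box-binding repressor, was at 24.8, 17.7 and 18.8 CPM in the controls and 32.0, 23.6 and 28.1 CPM after IL-1β, so the first control lay above the second IL-1β sample. Its log2 fold change was 0.45 (standard error 0.15, edgeR adjusted p = 0.0398). This call was lost with DESeq2 (0.0829), with upper-quartile scaling (0.0566) and with total counts (0.0652), and also without control replicate 2 (0.185), control replicate 3 (0.134), IL-1β replicate 1 (0.230) or IL-1β replicate 3 (0.128). Klf7, the closest relative of Klf6, was at 23.4 ± 4.36 and 23.7 ± 1.31 CPM (SD, n = 3 per group), with a 95% interval of the fold from 0.831 to 1.23 and an edgeR adjusted p of 0.965. Klf11, a relative of Klf10, was at 16.4 and 17.04 CPM (log2 fold change 0.05, edgeR adjusted p 0.883). The log2 fold changes of Sp1, Sp2, Sp3 and Sp4, factors that bind the same GC boxes, were 0.04, -0.10, -0.08 and -0.39, with adjusted p of 0.852, 0.794, 0.727 and 0.520. No lower member was found at an unadjusted p below 0.05, by DESeq2 or by limma. Klf1, the erythroid factor, had 1 to 13 reads per library and was not tested, and Klf8, Klf14 and Klf17 were at 0 reads in every library.

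Of 268 genes with a Pearson correlation of at least 0.95 with Klf6 over the 6 samples, among 7970 genes with a mean of at least 10 CPM, the closest were Mpeg1 (0.999), Vcl (0.998) and Bid (0.997) on the log2(CPM + 1) scale. All 6 points share their libraries and their 2 groups, so these values describe similarity only. Mpeg1 encodes a pore-forming protein of macrophages and rose from 83.0 to 141 CPM, a log2 difference of 0.76 (edgeR adjusted p = 1.7e-07). Vcl encodes the adhesion protein vinculin and rose from 95.3 to 136 CPM (adjusted p = 2.1e-05). Bid encodes a pro-apoptotic BCL2 relative and rose from 43.6 to 59.4 CPM (adjusted p = 0.0014).

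For the genes around the family, given list by list from here on, the shares to compare with are the 6.97% higher and 6.44% lower of all genes tested, and no list was tested for enrichment. Of 13 genes for corepressors and coactivators that KLF proteins bind, 12 were tested, and 0 passed by edgeR, DESeq2 or limma, with 0 higher and 1 lower at an unadjusted p below 0.05 and a median log2 fold change of -0.0027. Sin3a and Ctbp1, the scaffolds bound by the 2 repressor groups above, had log2 fold changes of -0.29 and -0.16 and edgeR adjusted p of 0.121 and 0.265, and Sin3a passed without control replicate 1 (0.0388). Sin3b, the paralog of Sin3a, was at 63.7 and 71.0 CPM (adjusted p = 0.353). Of 11 genes for kinases and MEF2 factors upstream of Klf2 and Klf4 and for ubiquitin ligases of KLF proteins, all were tested, 2 were higher (18.2%) and 0 lower, with a median of 0.23. Mapk7, which encodes the kinase ERK5, rose from 12.2 to 18.01 CPM (adjusted p = 0.0193), and this call was lost without control replicate 1 (0.0529) or IL-1β replicate 2 (0.159). Smurf1, a ubiquitin ligase, rose from 40.9 to 53.5 CPM (adjusted p = 0.0113), which was lost without IL-1β replicate 2 (0.0964). No gene of this list was lower at an unadjusted p below 0.05, by DESeq2 or by limma. Mef2c, the third by adjusted p, was at 3.995 and 2.57 CPM (edgeR adjusted p = 0.344).

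Lists of genes linked to KLFs, or sharing their inducers, held calls in both directions. Klf9 and Klf15 are glucocorticoid-induced, and of 10 genes for the glucocorticoid receptor and its usual targets 1 was higher and 2 lower, with a median log2 fold change of -0.015. Mt2, a metallothionein that metals and cytokines also induce, rose from 1425 to 1988 CPM (edgeR adjusted p = 8.7e-07). Zbtb16, a transcriptional repressor, fell from 14.3 to 7.21 CPM (adjusted p = 0.0021). Tat, the tyrosine aminotransferase, fell from 3.22 to 0.964 CPM (adjusted p = 0.0088), a call that was lost without IL-1β replicate 1 (0.0662). Tat had 43, 28 and 31 reads in the controls and 5, 12 and 13 after IL-1β. With at least 10 counts required in every sample, 1 gene of the glucocorticoid list was lower. Of 11 amino acid and glucose genes linked to Klf15, Klf9 and Klf10, 8 were tested, 2 were higher and 3 lower, with a median of -0.36. Aass, the first enzyme of lysine breakdown, rose from 3.50 to 21.1 CPM (adjusted p = 1.0e-09) and Pklr, the liver pyruvate kinase, rose from 27.4 to 47.0 CPM (adjusted p = 2.9e-05), while the urea cycle gene Otc fell from 25.5 to 17.7 CPM (adjusted p = 0.0056). The other lower genes were Tat and the alanine aminotransferase gene Gpt, which fell from 17.8 to 12.0 CPM (adjusted p = 0.0299) and was named after its value was seen. The call for Gpt was lost with DESeq2 (0.0642) and without control replicate 1 (0.140), control replicate 3 (0.0881), IL-1β replicate 1 (0.103), IL-1β replicate 2 (0.138) or IL-1β replicate 3 (0.0501). Without IL-1β replicate 1 the number of lower genes in this list was 1.

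Of 10 genes linked to Klf6 in autophagy, matrix and lipid metabolism, 8 were tested and none was called by edgeR, DESeq2 or limma, with a median log2 fold change of 0.061 and 1 gene higher at an unadjusted p below 0.05. This gene was Atg7, an autophagy enzyme, at 87.3 and 102 CPM (edgeR adjusted p = 0.0765), which passed without control replicate 1 (0.0360). Map1lc3b and Ppara, the next by adjusted p, had log2 fold changes of 0.11 and 0.20. Of 6 endothelial genes linked to Klf2 and Klf4, 5 were tested, 3 were higher and 1 lower, with a median of 1.45. The adhesion molecule gene Vcam1 rose from 8.70 to 24.5 CPM (edgeR adjusted p = 1.8e-07) and the endothelin gene Edn1 from 2.71 to 7.42 CPM (7.3e-04). The chemokine gene Cxcl12 fell from 3.90 to 1.01 CPM (0.0066), a call that was lost without IL-1β replicate 2 (0.0544). Cxcl12 had 37, 37 and 49 reads in the controls and 18, 2 and 10 after IL-1β, and 2 reads lie under the detection limit of 3 counts. With at least 10 counts required in every sample, 0 genes of this endothelial list were lower. Vcam1, Edn1 and Cxcl12 are also expressed by other cells and induced by cytokines. Klf2 and Klf4 themselves were not called, but the intervals of their fold changes were wide, 0.483 to 1.67 and 0.967 to 1.75. The part of Klf2 and Klf4 in the values of these genes was not tested. The remaining call, named after its value was seen, was Thbd, the thrombomodulin gene, at 1.10 and 3.53 CPM (edgeR adjusted p = 0.0244), and it was lost without control replicate 1 (0.0840), control replicate 2 (0.0953), IL-1β replicate 1 (0.150) or IL-1β replicate 3 (0.124).

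Several KLFs are expressed more strongly in other liver cells than in hepatocytes, and in bulk RNA fewer cells of a type and less RNA per cell cannot be told apart. Hepatocyte markers were at 39848 to 43592 CPM in sum in the controls and 37403 to 39282 CPM after IL-1β, 8 of 10 lower and 1 higher (7 lower and 0 higher with DESeq2, 6 lower and 1 higher with limma), with Alb, Hpx and Gc the most abundant at log2 fold changes of -0.20, 0.38 and -0.58. The call for Alb was lost with limma on log2(CPM + 1) (0.0883) and, in edgeR, without control replicate 2 (adjusted p = 0.0744) or IL-1β replicate 1 (0.0894), and that for Hpx was lost with DESeq2 (0.168). Of the 10 hepatocyte markers, all tested, 9 had fitted values below 0, and their median log2 fold change was -0.36. Macrophage markers summed to 247 to 279 CPM in the controls and 253 to 286 CPM after IL-1β. None of the 10 tested of 13 passed by edgeR, DESeq2 or limma. Among these 10 macrophage markers 7 had fitted values above 0 and 3 below, and their median log2 fold change was 0.38. At an unadjusted p below 0.05, 3 were higher and 0 lower, and these 3, named after their values were seen, were Cd74 (log2 fold change 0.56, edgeR adjusted p = 0.0658), Marco (0.67, 0.141) and C1qa (0.75, 0.211). Without control replicate 1, Cd74 (0.0234) and C1qa (0.0432) passed. The most abundant genes of the list, Cd68, Ctss and Cd5l, had log2 fold changes of -0.06, -0.02 and -0.21. Mpeg1, which is not in the list but is expressed by macrophages, rose as given above and had the highest correlation with Klf6. The part of macrophages in the rise of Klf6 was not tested. Endothelial markers summed to 85.5 to 97.5 and 81.4 to 84.6 CPM, with 1 higher and 3 lower of 9 tested of 11. Among these 9 endothelial markers 3 had fitted values above 0 and 6 below, and their median log2 fold change was -0.50. The 3 above 0 were Eng, Lyve1 and Cdh5, the most abundant of the list, with log2 fold changes of 0.02, 0.45 and 0.32. Eng was at -0.013 with upper-quartile scaling and -0.039 with total counts, and the call for Lyve1 (edgeR adjusted p = 0.0274) was lost with DESeq2 (0.0590) and total counts (0.0506) and without control replicate 1 (0.0965), control replicate 3 (0.0807), IL-1β replicate 2 (0.137) or IL-1β replicate 3 (0.0851). The 3 lower endothelial genes, named after their values were seen, were Clec4g (5.80 and 0.764 CPM, edgeR adjusted p = 1.9e-05), Kdr (4.55 and 1.62 CPM, 0.0051) and Ptprb (7.87 and 4.08 CPM, 0.0135). The call for Ptprb was lost without control replicate 3 (0.0804), IL-1β replicate 2 (0.0686) or IL-1β replicate 3 (0.0537), and the part of endothelial cells in the values of Klf2 and Klf4 was not tested.

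Stellate cell markers summed to 40.6 to 44.3 and 43.4 to 47.5 CPM, and of 3 tested of 10 none passed by edgeR, DESeq2 or limma, or at an unadjusted p below 0.05. Sparc, Dcn and Col3a1 were the most abundant of them, at 19.9, 18.4 and 0.885 CPM in the controls. Cholangiocyte markers summed to 315 to 329 CPM in the controls and 236 to 239 CPM after IL-1β, with 1 lower of 2 tested of 6. The most abundant were Spp1 at -1.20 and Sox9 at 0.21 (edgeR adjusted p = 0.0518, but 0.0459 with DESeq2, 0.0401 with the replicate block and 0.0473 without control replicate 1) on the log2 scale, both of which are also expressed by other cells. Krt19, a keratin of bile duct cells, had 6, 3 and 2 reads in the controls and 0 in each IL-1β library and was not tested. Neutrophil markers summed to 0 to 0.179 CPM in the controls and 2.24 to 4.83 CPM after IL-1β, of which S100a8 made up nearly all, with 0 reads in each control and 19, 36 and 51 reads after IL-1β. Csf3r had 0, 2 and 0 reads in the controls and 2, 1 and 1 after IL-1β and was not tested. S100a9, Elane, Mpo and Retnlg were at 0 in every library. The part of stellate cells, cholangiocytes and neutrophils in the rise of Klf6 was not tested either.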

How the data were processed

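Primary mouse hepatocytes, 3 control and 3 IL-1β samples, were profiled by QuantSeq (75-nt reads). The sample titles gave the groups. The authors deposited raw counts per gene, log2 values of TMM-normalized CPM per sample with their group averages, a linear fold change ratio and an unadjusted p-value. The authors' fold changes and p-values were not used. Per the labels, the authors aligned reads with Bowtie2 and normalized with edgeR, on mm10 (GRCm38), while the counting tool is not given in the sources used here. Positions are those of the deposited table.

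The deposited raw counts were tested with edgeR 4.0.16 in R 4.3.3 (filterByExpr, TMM, quasi-likelihood test), adjusted over all 11657 genes kept, and the procedure was tested on simulated data. A standard error is the log2 fold change divided by the square root of F, and intervals cover 95%. Alternatives used DESeq2 1.42.0 and limma 3.58.1 with pseudocounts of 1 or 0.1, other scalings and filters, the authors' log2 values, omission of Rn45s, a replicate block and omission of each sample. Permutation tests used scipy 1.17.1. The members and gene lists were chosen with earlier results of these data known. Beside the members, the text names all tested genes of the family list, the 3 with the smallest adjusted p of each other list, the 3 most abundant markers of each cell type and the 3 genes most correlated with Klf6. Rn45s took 11.7% to 14.2% of counts. Some genes of the cofactor, endothelial and cholangiocyte lists are not reported here and were left out of those lists. Precision is limited by reads per gene and by the spread between replicates.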

Additional observations from a re-analysis of the deposited data

How the results depend on the processing

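Klf6 stayed higher with an adjusted p below 0.05 in all 16 other fits, with log2 fold changes from 0.31 (total counts alone) to 0.37 with all 6 samples and 0.35 to 0.41 with each sample left out, and adjusted p of up to 0.0014. In each of these fits 1 member was higher and 0 were lower. A replicate block gave 1671 called genes in all, against 1563. Over 7976 genes, samples of the same number deviated from their group means with correlations of 0.15, 0.075 and -0.046. Control replicates 1 and 2 correlated best with the IL-1β sample of the same number, and control replicate 3 with IL-1β replicate 2 (0.20). With 3 samples per group these values cannot decide whether samples of the same number were paired. At an adjusted p below 0.01, a stricter threshold by construction, 996 genes were called with all 6 samples. At the threshold of 0.05 used elsewhere, 1131 to 1596 genes were called with each sample left out.

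With each sample left out in turn, log2 fold changes of members that were never called ranged from -0.51 to 0.063 for Klf2, -0.062 to 0.020 for Klf3, -0.022 to 0.16 for Klf9, -0.19 to 0.010 for Klf10, -0.36 to 0.061 for Klf12 and -0.11 to 0.77 for Klf15, and so changed direction. The range was -0.058 to 0.17 for Klf7, -0.050 to 0.13 for Sp1, -0.15 to 0.027 for Sp3, -0.048 to 0.12 for Eng, -0.077 to 0.022 for Ctss and -0.016 to 0.044 for Sparc. The change of the log2 ratio ranged from -0.058 to 0.38 for Klf4 to Klf5, -0.19 to 0.27 for Klf4 to Klf6, -0.17 to 0.074 for Klf9 to Klf13 and -0.052 to 0.34 for Klf3 to Klf12. Upper-quartile scaling turned Klf7 (-0.012), Eng (-0.013) and Sparc (-0.011), and total counts turned Klf7 (-0.040), Sp1 (-0.013), Eng (-0.039) and Sparc (-0.036), all near 0. The cause was not tested. The alternatives for genes and lists other than the members were added after the data were seen.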
